A study of Mus musculus with 12 samples.

Results

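The Slc25 family encodes the mitochondrial carriers, and 42 of its genes were followed in mouse liver among 18194 genes measured on the same arrays. Members were all genes whose symbol in the platform annotation begins with Slc25a, except Slc25a15 and Slc25a20, which were left out by definition. The 42 genes had 89 probe sets, and each gene was represented by its brightest probe set, taken as the mean signal over the 12 arrays. No measured difference entered the choice of probe set, while the members were chosen with earlier results of these data known. Livers of adult females (B6.129 background) were measured on 12 one-colour Affymetrix arrays. αERKO mice (Esr1-/-) carry the disruption of Esr1, the gene of estrogen receptor alpha, in the whole body and not in liver alone. They and wild-type mice (WT, Esr1+/+) received either a diet with 60 kcal% fat (high-fat) or NIH-31 feed (normal) over 2 weeks. The groups were αERKO high-fat, αERKO normal, WT high-fat and WT normal, with 3 arrays each. The labels leave unsaid whether arrays within a group stand for different mice, so the error behind each p-value is the spread among these samples and may be technical.

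Slc25 proteins are small carriers that sit mostly in the inner mitochondrial membrane and swap metabolites, nucleotides, phosphate and cofactors between the cytosol and the matrix. Each carrier is built from repeats of the same fold, opens to either side of the membrane in turn, and usually exchanges a substrate of the matrix for another from the cytosol. In liver they supply ADP and phosphate for ATP synthesis, export citrate for lipid synthesis, and move malate, aspartate and glutamate for gluconeogenesis and the urea cycle.

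Most of the family was readily measured in liver. A member was tested when its signal exceeded the median of all probe sets on an array on at least 3 of the 12 arrays, and 36 of 42 members met this (85.7%), against 12264 of 18194 genes (67.4%). The 6 members that did not were Slc25a2, Slc25a18, Slc25a31, Slc25a35, Slc25a41 and Slc25a54. Among them Slc25a31 encodes the testis form of the adenine nucleotide carrier, with signals between 1.2 and 31.1, and Slc25a18 a glutamate carrier, with signals between 7.5 and 94.7. In 32 members the signal was above the array median on all 12 arrays.

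The mean MAS5 signal over 12 arrays, a linear brightness, exceeded 20000 in 4 members, all of them above the 99th percentile of all genes. These were Slc25a47 (25643 to 43002), a carrier expressed mainly in liver, Slc25a5 (24767 to 32366), the adenine nucleotide carrier 2, Slc25a39 (24469.7 to 38854), a glutathione carrier, and Slc25a3 (20736.5 to 31358), the phosphate carrier. A further 8 members averaged 2000 to 20000, 19 averaged 200 to 2000 and 11 averaged less than 200. Brightness also depends on the probes, so these bands do not rank the transcripts by amount. Within groups the 36 tested members had a median SD of 0.23 on the log2 scale, against 0.25 for all genes tested. Slc25a3 was the steadiest member (SD 0.11) and the dim Slc25a14, an uncoupling-protein-like carrier, the most variable (SD 1.03).

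The arrays matched their labels and tissue. Esr1 averaged 802 ± 121 in αERKO high-fat and 623 ± 51.2 in αERKO normal livers, against 3343 ± 291 in WT high-fat and 2777 ± 1026 in WT normal livers (SD, n = 3 each), and 7 of 8 listed hepatocyte markers measured were bright on all 12 arrays. On normal diet these 7 summed to 327362.7 to 399481.2 in αERKO, against 417574 to 444685.5 in WT livers, without overlap. Singly, Alb, Apoa1, Ttr and Hpd did not overlap there, and Cps1, Fgb and Tat did. The mean log2 signal of these 7 overlapped on normal diet, with 15.77 on αERKO normal 1, against 15.72 on WT normal 2. On the high-fat diet the 7 markers summed to 313209.5 to 371274.9 in αERKO, against 357077.6 to 402825.3 in WT livers, with overlap. The part of hepatocyte content in the carrier values below was not tested. Transcripts of pancreatic acinar cells were high on 4 arrays (αERKO normal 1, WT normal 2, WT high-fat 2 and WT high-fat 3), where 10 of 11 listed markers had a mean log2 signal of 9.93 to 13.8, against 5.44 to 6.44 on the other 8. Skeletal muscle transcripts (11 of 11 listed) were high on αERKO normal 1 (10.9), αERKO high-fat 2 (9.06) and αERKO normal 2 (7.24), against 5.50 to 6.79 on the other 9. The 6 macrophage markers summed to 8489.7 to 8964.5 in αERKO high-fat and 7464 to 10280.1 in αERKO normal livers. In WT high-fat livers the sum was 10623 to 13875.5 and in WT normal livers 10961 to 11549.6, with no overlap between genotypes. Csf1r, the brightest of them, lay at 4764 to 6694 on αERKO arrays, against 6838 to 8957 on WT arrays. Each of the other markers overlapped between genotypes. Their mean log2 signal overlapped too, with 9.79 on αERKO normal 1, against 9.62 on WT high-fat 2. The part of the macrophage markers in the carrier values below was not tested. In whole liver, fewer cells of a type and less RNA per cell cannot be told apart.

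No member of the family passed the test between αERKO and WT livers on either diet taken alone. The test was limma on log2(signal + 16) across 12264 genes, with a call at an adjusted p under 0.05. On normal diet 0 of 36 members were called, against 1.22% of all genes tested, and the smallest adjusted p was 0.114, for Slc25a16. On the high-fat diet 0 of 36 were called, against 1.98% of all genes, and the smallest adjusted p was 0.114, for Slc25a1. At an unadjusted p under 0.05 there were 3 members with higher and 3 with lower values in αERKO on normal diet, against 5.03% and 7.05% of all genes. On the high-fat diet these numbers were 5 and 5, against 6.85% and 8.32% of all genes. The median log2 difference of the members was -0.075 on normal diet and -0.06 on the high-fat diet, beside -0.05 and -0.03 for all genes tested. In each of the 2 comparisons 29 of 36 members had a 95% interval of the difference that lay within 1 log2 unit of 0, so a doubling or halving lay outside it for those members. That was 80.6% of members, against 75.4% of all genes on normal diet and 75.6% on the high-fat diet.

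**Figure D1:**
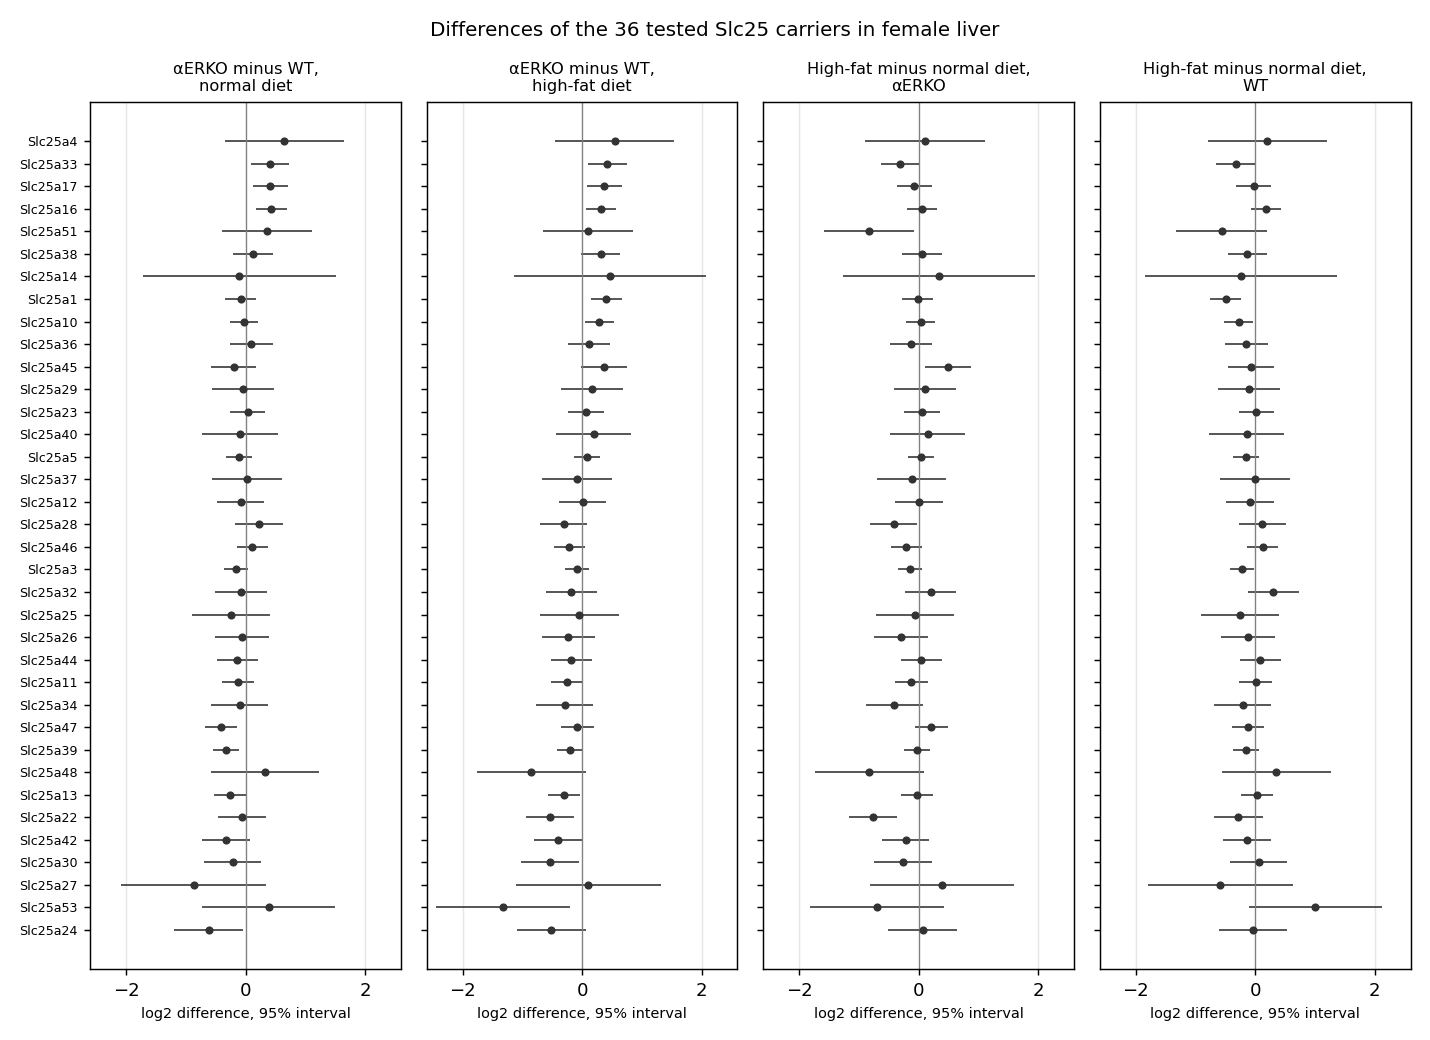
Log2 differences of the 36 tested carriers (horizontal axis, points with 95% intervals from limma, 12 arrays) in 4 comparisons, 1 panel each, with carriers ordered by their genotype difference averaged over diets. Intervals are widest for the dim carriers Slc25a14, Slc25a27 and Slc25a53, and the point farthest from 0 is Slc25a53 at -1.32 in the high-fat genotype panel.

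Averaging the genotype difference over both diets used all 6 αERKO and 6 WT arrays, and this comparison was added after the data had been seen. In it 3 of 36 members were higher in αERKO (8.33%) and 0 were lower, against 4.32% of all genes called, 2.06% higher and 2.26% lower. Slc25a16 has been linked to mitochondrial coenzyme A, Slc25a17 is the peroxisomal carrier of CoA, FAD and NAD, and Slc25a33 carries pyrimidine nucleotides into mitochondria. They share no single substrate, and the log2 differences of the 3 genes were alike in size, 0.37, 0.39 and 0.42. Several probe sets passed the filter in 17 members, and in 7 of these all of them had the same sign for this averaged difference.

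Slc25a16 signals were 5024, 4859.7 and 5462 in αERKO high-fat and 5366.5, 4312 and 5136 in αERKO normal livers, against 4087, 4617 and 3677 in WT high-fat and 4009, 3415 and 3502 in WT normal livers. On each diet the 3 αERKO arrays lay above the 3 WT arrays, while over both diets the lowest αERKO array was below the highest WT array. The mean over 6 arrays was 5026.5 ± 414 in αERKO, against 3884 ± 448 in WT (SD), a log2 difference of 0.37 ± 0.08 (SE, adjusted p = 0.0204).

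Slc25a17 signals were 858, 787 and 752 in αERKO high-fat and 822, 945 and 762 in αERKO normal livers, against 644, 629 and 573 in WT high-fat and 676, 668 and 540.5 in WT normal livers. All 6 αERKO arrays lay above all 6 WT arrays, a separation that 1.29% of all genes showed. The log2 difference was 0.39 ± 0.10 (SE, adjusted p = 0.0349), from means of 821 ± 72.4 in αERKO and 622 ± 54.2 in WT (SD, n = 6 each). A second, dimmer probe set of the gene averaged 56.0 and was not tested, and with the mean of both probe sets the difference was 0.17 (adjusted p = 0.704).

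Slc25a33 signals were 1287, 1167 and 1022 in αERKO high-fat and 1383, 1473 and 1462 in αERKO normal livers, against 749, 804.5 and 1036 in WT high-fat and 1267, 979 and 1008 in WT normal livers. The genotypes separated on normal diet, and on the high-fat diet the lowest αERKO array was just under the highest WT array. The means were 1299 ± 178 in αERKO and 974 ± 184 in WT (SD, n = 6 each), a log2 difference of 0.42 ± 0.11 (SE, adjusted p = 0.0383).

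**Figure D2:**
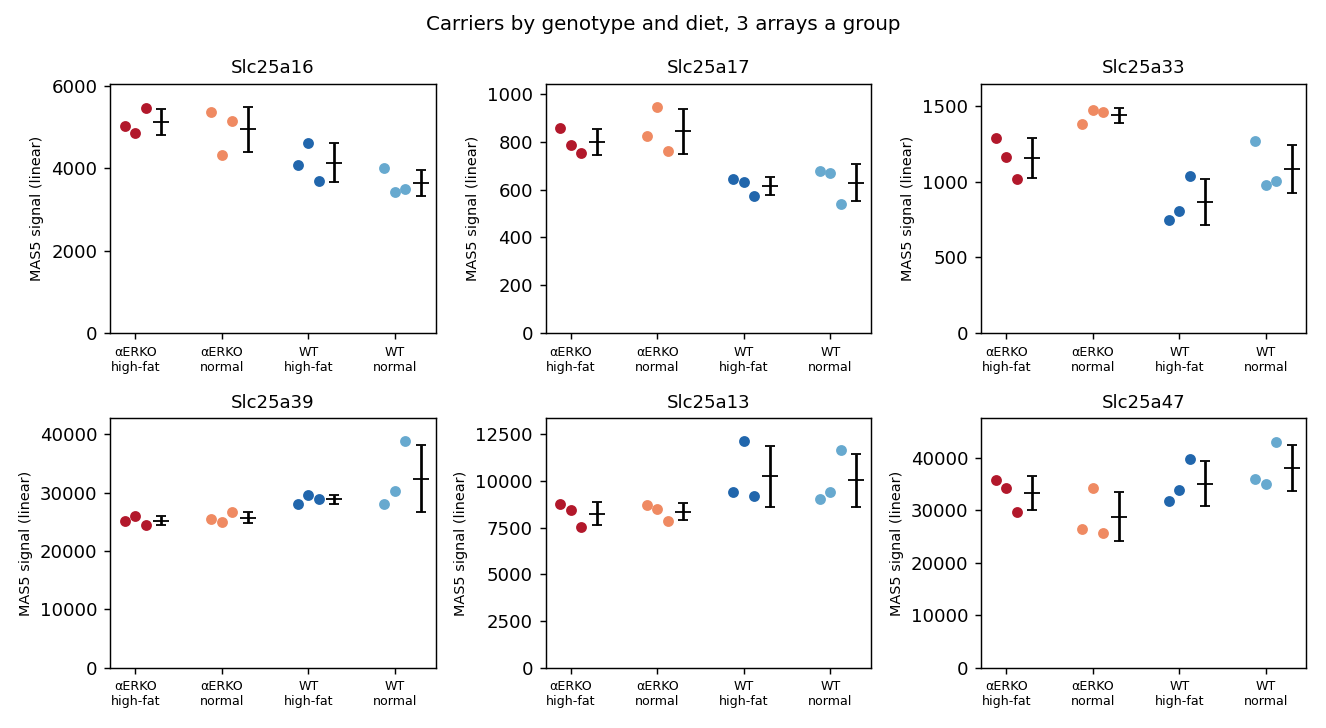
MAS5 signal (vertical axis, linear) of 6 carriers on each array by group, with 3 points a group and the mean ± SD in black. Slc25a16, Slc25a17 and Slc25a33 are higher in αERKO, and the brightest probe sets of Slc25a39 and Slc25a13 have all 6 αERKO arrays below all 6 WT arrays.

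These calls rested on the full set of arrays. Leaving out each array in turn, Slc25a16 was called in 10 of 12 fits, Slc25a17 in 4 and Slc25a33 in 3, and leaving out WT high-fat 1 left 0 of the 3. Leaving out the 4 arrays with acinar transcripts gave log2 differences of 0.32, 0.39 and 0.49 for Slc25a16, Slc25a17 and Slc25a33 (adjusted p = 0.227, 0.261 and 0.131), and leaving out the 3 arrays with muscle transcripts gave 0.42, 0.33 and 0.43 (adjusted p = 0.120, 0.369 and 0.288).

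The 3 carriers that passed are shown with their promoters, because they were the members called. The letters GGTCA, repeated, make up the DNA element that estrogen receptor alpha binds. The windows are the 250 bases before each gene's start, read 5′ to 3′ on the gene's strand from RefSeq on GRCm38.p6, with every GGTCA or its reverse complement TGACC in capitals.
Slc25a16, chr10:62920383-62920632, plus strand: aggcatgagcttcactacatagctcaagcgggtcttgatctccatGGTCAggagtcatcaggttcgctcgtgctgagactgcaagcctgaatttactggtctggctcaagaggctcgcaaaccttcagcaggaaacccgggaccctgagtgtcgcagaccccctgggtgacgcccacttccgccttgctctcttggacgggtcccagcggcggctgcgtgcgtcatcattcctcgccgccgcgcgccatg
Slc25a17, chr15:81360766-81361015, minus strand: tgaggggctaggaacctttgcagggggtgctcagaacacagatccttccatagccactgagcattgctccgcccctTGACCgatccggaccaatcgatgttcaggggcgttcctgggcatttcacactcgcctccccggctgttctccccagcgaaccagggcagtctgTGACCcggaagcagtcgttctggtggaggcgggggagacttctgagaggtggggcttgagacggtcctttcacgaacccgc
Slc25a33, chr4:149774268-149774517, minus strand: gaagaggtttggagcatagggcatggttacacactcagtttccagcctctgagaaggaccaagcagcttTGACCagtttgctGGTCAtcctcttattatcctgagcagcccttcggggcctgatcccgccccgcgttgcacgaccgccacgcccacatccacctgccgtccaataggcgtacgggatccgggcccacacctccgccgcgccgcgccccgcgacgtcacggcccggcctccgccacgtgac
Slc25a16 held 1 copy of the motif, 205 bases before the start, and Slc25a17 and Slc25a33 held 2 each. None of the 3 held the full response element (GGTCA, any 3 bases, TGACC), the estrogen-related receptor motif TNAAGGTCA or the NRF1 motif (GCGCA followed directly by its reverse complement). On both strands GGTCA stood in 16 of 32 member promoters that had an entry and in 34.89% of 27025 RefSeq promoters of the same length. The full element stood in 0 of 32 member promoters and in 0.06% of all promoters. TNAAGGTCA, which contains GGTCA, and the NRF1 motif also stood in 0 of 32, against 1.14% and 0.78% of all promoters. Member promoters had a median GC content of 59.8%, against 52.0% for all promoters. A match describes letters and is no measurement of binding.

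Carriers of adenine nucleotides and phosphate had 6 of 8 members tested, and 0 were called for genotype, against 1.22% of all genes on normal diet, 1.98% on the high-fat diet and 4.32% over both, so the count says little about these carriers. Slc25a5 signals were 31648, 30239 and 26096 in αERKO high-fat and 31091.5, 29632 and 24767 in αERKO normal livers, against 25621, 28794.5 and 28434 in WT high-fat and 29686, 30105 and 32366 in WT normal livers. The genotypes overlapped on both diets, and the log2 difference averaged over diets was -0.02 ± 0.07 (SE). Of the 8 Slc25a5 probe sets, the 4 brightest had log2 differences between -0.02 and 0.02. Of the dimmer 4, 2 were called higher in αERKO when all probe sets were tested, with differences of 0.50 ± 0.10 (adjusted p = 0.0141) and 0.46 ± 0.11 (adjusted p = 0.0402). Both carry the array's mark for probes that also match other transcripts, as do 3 of the 4 brightest. Without that mark, a bright probe set (mean signal 25142) gave -0.02 ± 0.08 (SE). A dimmer probe set without it (mean signal 4016) gave 0.35 ± 0.15 (SE, adjusted p = 0.236) and was not called. No direction for the gene follows from these probe sets.

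Slc25a4, the adenine nucleotide carrier 1 that predominates in muscle and heart, had signals of 525, 1113 and 464 in αERKO high-fat and 1606, 419 and 317 in αERKO normal livers, against 368, 406 and 563 in WT high-fat and 311, 379 and 458 in WT normal livers. The 2 high arrays, αERKO normal 1 and αERKO high-fat 2, were the 2 with the highest muscle marker levels, and the third array with muscle transcripts, αERKO normal 2, was not high. The log2 difference averaged over diets was 0.60 ± 0.33 (SE, adjusted p = 0.336). The part of the muscle transcripts in this value was not tested.

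**Figure D3:**
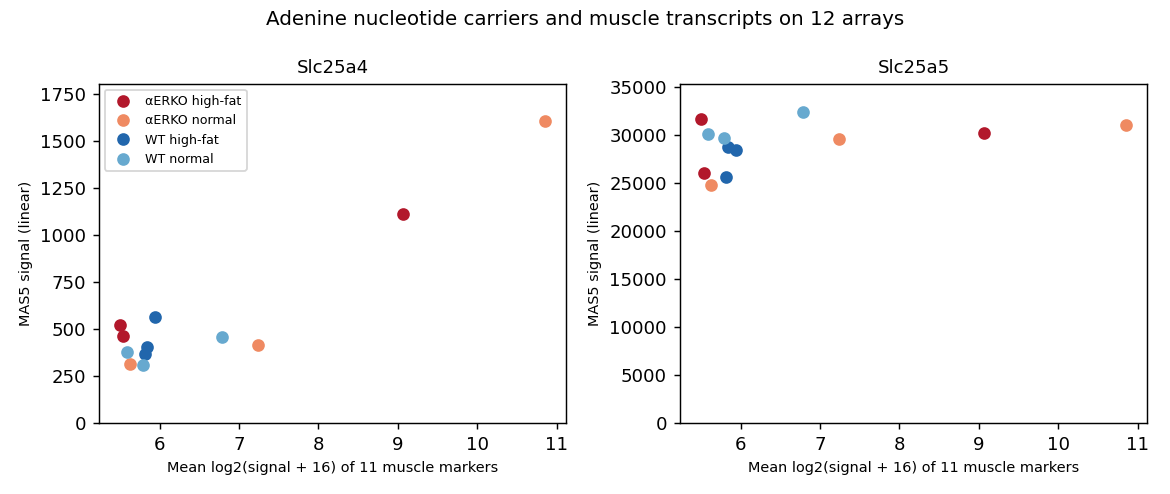
Signal of Slc25a4 and Slc25a5 (vertical axes, linear MAS5 signal) against the mean log2(signal + 16) of 11 muscle markers (horizontal axis), with 1 point for each of the 12 arrays coloured by group. The arrays at 10.9 and 9.06 have the highest Slc25a4 signals, 1606 and 1113, and lie within the range of the others for Slc25a5.

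**Figure D4:**
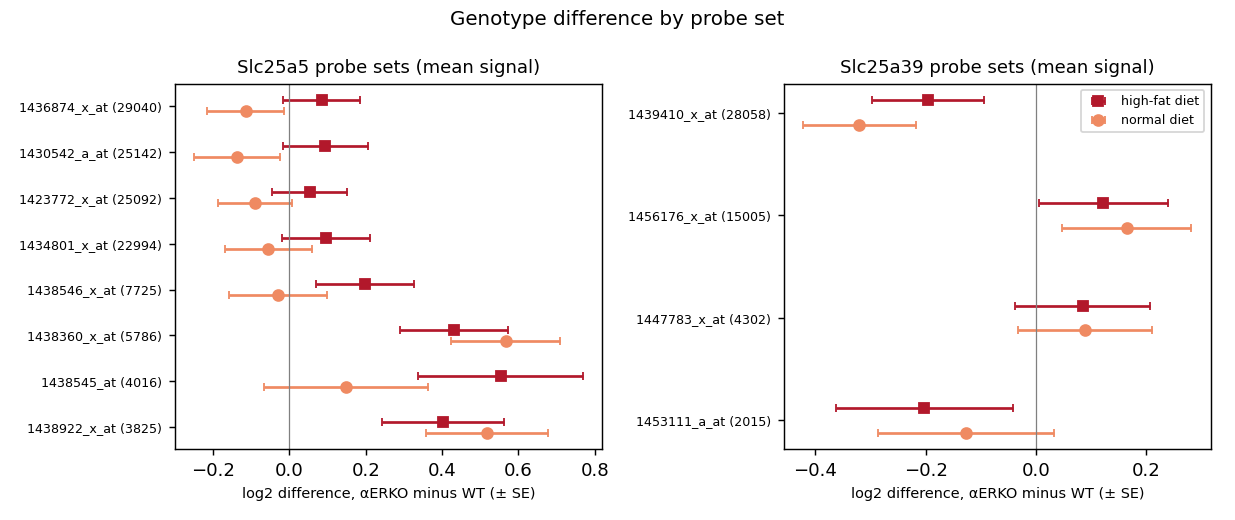
Log2 difference between αERKO and WT (horizontal axis, ± SE) for each tested probe set of Slc25a5 and Slc25a39, ordered by mean signal given in brackets, with squares for the high-fat and circles for the normal diet. The bright Slc25a5 probe sets lie near 0 and 2 dim ones near 0.5, and the Slc25a39 probe sets lie on both sides of 0.

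The calcium-dependent ATP-Mg and phosphate carriers of this group are Slc25a23, Slc25a24 and Slc25a25. Slc25a24 signals were 182, 177 and 219 in αERKO high-fat and 206, 163 and 180.5 in αERKO normal livers, against 397, 220.1 and 251 in WT high-fat and 203, 433 and 269 in WT normal livers. WT arrays ranged widely and overlapped αERKO only on normal diet. The difference averaged over diets was -0.56 ± 0.19 (SE, adjusted p = 0.112). Slc25a23 and Slc25a25 had averaged differences of 0.05 and -0.14, both within 1 SE of 0 (0.10 and 0.22).

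The carboxylate carriers and the carriers of the malate-aspartate shuttle were tested in 6 of 7 members, with 0 called for genotype, a number too small to set against the 1.22%, 1.98% and 4.32% of all genes called on normal diet, on the high-fat diet and over both. Slc25a1 exports citrate, the carbon source of cytosolic acetyl-CoA. Its signals were 2194, 2169 and 2564 in αERKO high-fat livers, against 1826, 1517 and 1891 in WT high-fat livers, and 2213, 2263 and 2513 in αERKO normal livers, against 2347.5, 2325 and 2703 in WT normal livers. On the high-fat diet αERKO lay above WT without overlap, with a log2 difference of 0.40 ± 0.12 (SE, adjusted p = 0.114), and on normal diet the genotypes overlapped.

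Slc25a10, the dicarboxylate carrier, was arranged in the same way, with 3252, 3615 and 3695 in αERKO high-fat livers, against 3148, 2709 and 2779.7 in WT high-fat livers (0.29 ± 0.11, SE, adjusted p = 0.216). The gap between these groups was small beside their spread, and a second Slc25a10 probe set (mean signal 1303) gave -0.002 ± 0.14. Slc25a22, a glutamate carrier, had 857, 1003 and 1068 in αERKO high-fat livers, against 1339.7, 1382 and 1536 in WT high-fat livers (-0.54 ± 0.19, SE, adjusted p = 0.179), again without overlap.

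Slc25a13, citrin, is the aspartate-glutamate carrier of liver and feeds aspartate to the urea cycle. Its signals were 8740.2, 8429.9 and 7552 in αERKO high-fat and 8738, 8475 and 7864 in αERKO normal livers, against 9417, 12131 and 9199 in WT high-fat and 9022, 9435 and 11648 in WT normal livers. All 6 αERKO arrays lay below all 6 WT arrays, as in 1.64% of all genes, and the averaged difference was -0.28 ± 0.09 (SE, adjusted p = 0.0897), which did not pass. Its paralogue Slc25a12 differed by -0.04 ± 0.13 and the oxoglutarate carrier Slc25a11 by -0.19 ± 0.09 (SE).

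Among the carriers of cofactors all 8 members were tested, and Slc25a16 and Slc25a17 were the only calls. Both came from the genotype comparison over both diets that was added after the data had been seen, where 4.32% of all genes were called. Slc25a39 imports glutathione and is needed for heme and iron-sulfur metabolism in other mouse tissues. Its brightest probe set gave 25167, 26002 and 24469.7 in αERKO high-fat and 25451, 24959 and 26745 in αERKO normal livers, against 28112, 29687 and 28864 in WT high-fat and 28079.8, 30314 and 38854 in WT normal livers. The genotypes did not overlap, with an averaged difference of -0.26 ± 0.07 (SE, adjusted p = 0.0596). Its adjusted p was 0.0261 without WT normal 1 and 0.0484 among genes above the array median on all 12 arrays. The next 2 probe sets by brightness gave 0.14 and 0.09, however, and the mean of all its probe sets -0.07 (adjusted p = 0.638). These 2 and the brightest carry the array's mark for probes that also match other transcripts. A tested probe set without that mark (mean signal 2014.6) gave -0.165 ± 0.113 (SE).

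The erythroid list had 3 of 7 markers measured, and they summed to 734.7 to 1153.8 in αERKO high-fat and 1086 to 1530.4 in αERKO normal livers, against 294 to 401 in WT high-fat and 324 to 545 in WT normal livers. Most of this was Alas2, the heme synthesis enzyme of red cell precursors, at 679.7 to 1407 on αERKO arrays, against 201 to 390.1 on WT arrays. Hba-a1, an alpha globin, stayed between 21.4 and 77.8 on αERKO arrays, against 7.4 to 96.2 on WT arrays. Besides Slc25a39, 3 carriers linked to heme and iron were not called, against 4.32% of all genes called. Slc25a38, which brings glycine to heme synthesis, differed by 0.22 ± 0.11, and the mitochondrial iron carriers Slc25a37 and Slc25a28 by -0.03 ± 0.19 and -0.04 ± 0.13 (SE, averaged over diets). The part of red cell transcripts in these values was not tested.

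Slc25a42, a CoA carrier, had 414, 419 and 433 in αERKO high-fat livers, against 625, 574 and 501 in WT high-fat livers, without overlap, and 384, 492 and 635 in αERKO normal livers, against 709.6, 499 and 678 in WT normal livers, with overlap. The averaged difference was -0.37 ± 0.13 (SE, adjusted p = 0.139), of the opposite sign to that of Slc25a16. A second, dim Slc25a42 probe set (mean signal 74.0) gave 0.24 ± 0.35 (SE). The NAD carrier Slc25a51, the folate and FAD carrier Slc25a32, the S-adenosylmethionine carrier Slc25a26 and the glutathione carrier Slc25a40 had averaged differences between -0.14 and 0.23, with adjusted p of 0.635 and above. The other 2 probe sets of Slc25a51 gave 0.46 and 0.55, also not called (adjusted p = 0.348 and 0.138).

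The remaining groups held 1 genotype call, Slc25a33, in the same added comparison over both diets, against 4.32% of all genes. Its relative Slc25a36, also a pyrimidine nucleotide carrier, differed by 0.11 ± 0.12 (SE). Of the carriers listed under amino acids 4 of 5 were tested, with averaged differences from -0.26 for Slc25a48 to 0.22 for Slc25a38. A second Slc25a48 probe set gave 0.02 ± 0.22 (SE). The uncoupling-protein-like carriers were tested in 3 of 3, with averaged differences from -0.38 for Slc25a27 to 0.19 for Slc25a14. Slc25a30, of the same kind and the brightest of the 3, had 1756, 1299.5 and 1669 in αERKO high-fat livers, against 1895, 2429 and 2542 in WT high-fat livers (-0.53 ± 0.23, SE, adjusted p = 0.270). Dimmer Slc25a30 probe sets, with mean signals of 768.9 and 726.8, gave -0.30 ± 0.29 and -0.05 ± 0.24 (SE), and in both the genotypes overlapped.

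Among carriers without a settled substrate, Slc25a47 had 26502, 34185 and 25643 in αERKO normal livers, against 36008.5, 35008 and 43002 in WT normal livers, without overlap (-0.41 ± 0.13, SE, adjusted p = 0.187). On the high-fat diet the genotypes overlapped, with 35826, 34179.7 and 29576 in αERKO, against 31652, 33741 and 39807 in WT. Slc25a53 had the widest difference on that diet, -1.32 ± 0.52 (SE, adjusted p = 0.231), but its signals were 12.6, 77.0 and 30.4 in αERKO, against 109, 76.0 and 153 in WT, where the medians of whole arrays were 75.6 to 114. A second Slc25a53 probe set (mean signal 63.8) gave -0.44 ± 0.42 (SE) there. Averaged over diets it gave 0.36, against -0.47 for the brightest one.

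Counting tested members whose 3 αERKO arrays did not overlap the 3 WT arrays gave 3 above and 3 below on normal diet, against 6.18% and 9.62% of all genes tested, which is 8.33% of the 36 members each way. On the high-fat diet the counts were 6 above (16.67%) and 8 below (22.22%), against 10% and 12.5% of all genes. Those above were Slc25a1, Slc25a10, Slc25a16, Slc25a17, Slc25a38 and Slc25a45, and those below were Slc25a11, Slc25a13, Slc25a22, Slc25a24, Slc25a30, Slc25a34, Slc25a39 and Slc25a42. Over both diets 1 member, Slc25a17, lay above with all 6 arrays and 2, Slc25a13 and Slc25a39, lay below, against 1.29% and 1.64% of all genes.

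The 2-week high-fat diet was compared with the normal diet within each genotype, and no member was called in either. In αERKO 0 of 36 were called, against 0.481% of all genes, and in WT 0 of 36, against 0.0734%. The smallest adjusted p was 0.121 in αERKO, for Slc25a22, and 0.220 in WT, for Slc25a1. At an unadjusted p under 0.05 there were 1 member with a higher and 3 with lower values on the high-fat diet in αERKO, against 5.64% and 4.67% of all genes, and 0 and 4 in WT, against 4.3% and 3.98%. Median log2 differences of the members were -0.025 in αERKO and -0.11 in WT, beside 0.02 and -0.005 for all genes. The 95% interval lay within 1 log2 unit of 0 in 29 and 30 of 36 members (80.6% and 83.3%), against 77.4% and 77.9% of all genes.

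The carrier with the smallest diet p in αERKO was Slc25a22, which moves glutamate into the matrix. Its signals were 857, 1003 and 1068 in αERKO high-fat livers, against 1783, 1986 and 1291 in αERKO normal livers, and 1339.7, 1382 and 1536 in WT high-fat livers, against 1473, 1503 and 2311 in WT normal livers. The diets did not overlap in αERKO (-0.76 ± 0.19, SE, adjusted p = 0.121) and overlapped in WT (-0.28 ± 0.19, SE, adjusted p = 0.741). Weighting arrays by quality gave an adjusted p of 0.0384 in αERKO, and leaving out WT normal 3, an array outside the comparison that enters its spread, gave 0.0466.

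In WT the citrate carrier Slc25a1 had 1826, 1517 and 1891 in high-fat livers, against 2347.5, 2325 and 2703 in normal livers, without overlap (-0.49 ± 0.12, SE, adjusted p = 0.220). In αERKO the diets overlapped, with the values given above and a difference of -0.01 ± 0.12 (SE, adjusted p = 0.979). Slc25a10 in WT had 3148, 2709 and 2779.7 in high-fat livers, against 3668, 3259.8 and 3547 in normal livers (-0.28 ± 0.11, SE, adjusted p = 0.497), also without overlap. Its second probe set gave 0.06 ± 0.14, and the mean of both probe sets -0.11. The phosphate carrier Slc25a3 had 23331, 25474.5 and 25183 in WT high-fat livers, against 27062, 28178 and 31358 in WT normal livers (-0.23 ± 0.09, SE, adjusted p = 0.514).

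Slc25a45, whose substrate was listed as not settled, had 863, 876 and 985 in αERKO high-fat livers, against 546, 723 and 657 in αERKO normal livers. Among the 36 tested members it alone lay above without overlap on the high-fat diet in αERKO (0.50 ± 0.18, SE, adjusted p = 0.319), beside 9.07% of all genes. Slc25a51 had 5929, 4624 and 3730.3 in αERKO high-fat livers, against 16204, 5743 and 6153 in αERKO normal livers (-0.83 ± 0.35, SE, adjusted p = 0.420). The highest of these was αERKO normal 1, the array with the most muscle and the second most acinar transcripts, and without it the difference was -0.345, the lowest in size when 1 array was left out. Dimmer Slc25a51 probe sets, with mean signals of 2887.4 and 1680.1, gave -1.10 ± 0.35 and -0.43 ± 0.27 (SE) for diet in αERKO. Neither was called when all probe sets were tested (adjusted p = 0.290 and 0.675). Slc25a28, mitoferrin 2, had 326, 432 and 585 in αERKO high-fat livers, against 655, 565 and 543 in αERKO normal livers (-0.42 ± 0.18, SE, adjusted p = 0.449), with overlap. This difference was -0.215 without αERKO high-fat 1 and -0.62 without αERKO high-fat 3.

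Other members with positive diet differences were further from the threshold. In αERKO, Slc25a47 had 35826, 34179.7 and 29576 in high-fat livers, against 26502, 34185 and 25643 in normal livers, and Slc25a32 had 812, 687 and 591, against 623, 769 and 448. Both overlapped between diets, with differences of 0.21 ± 0.13 (SE, adjusted p = 0.612) and 0.20 ± 0.20. In WT the positive differences with the smallest p-values were those of the dim Slc25a53 (1.01 ± 0.52, SE, adjusted p = 0.637), from 109, 76.0 and 153 in high-fat livers and 47.4, 85.9 and 20.6 in normal livers, of Slc25a32 (0.31 ± 0.20, adjusted p = 0.733) and of Slc25a16 (0.18 ± 0.12, adjusted p = 0.735). At their brightest probe sets all 3 overlapped between the diets. The second Slc25a53 probe set had 100.8, 73.6 and 88.9 in WT high-fat livers, against 33.4, 40.0 and 9.4 in WT normal livers, without overlap. It differed by 1.32 ± 0.42 (SE, adjusted p = 0.441 when all probe sets were tested).

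**Figure D5:**
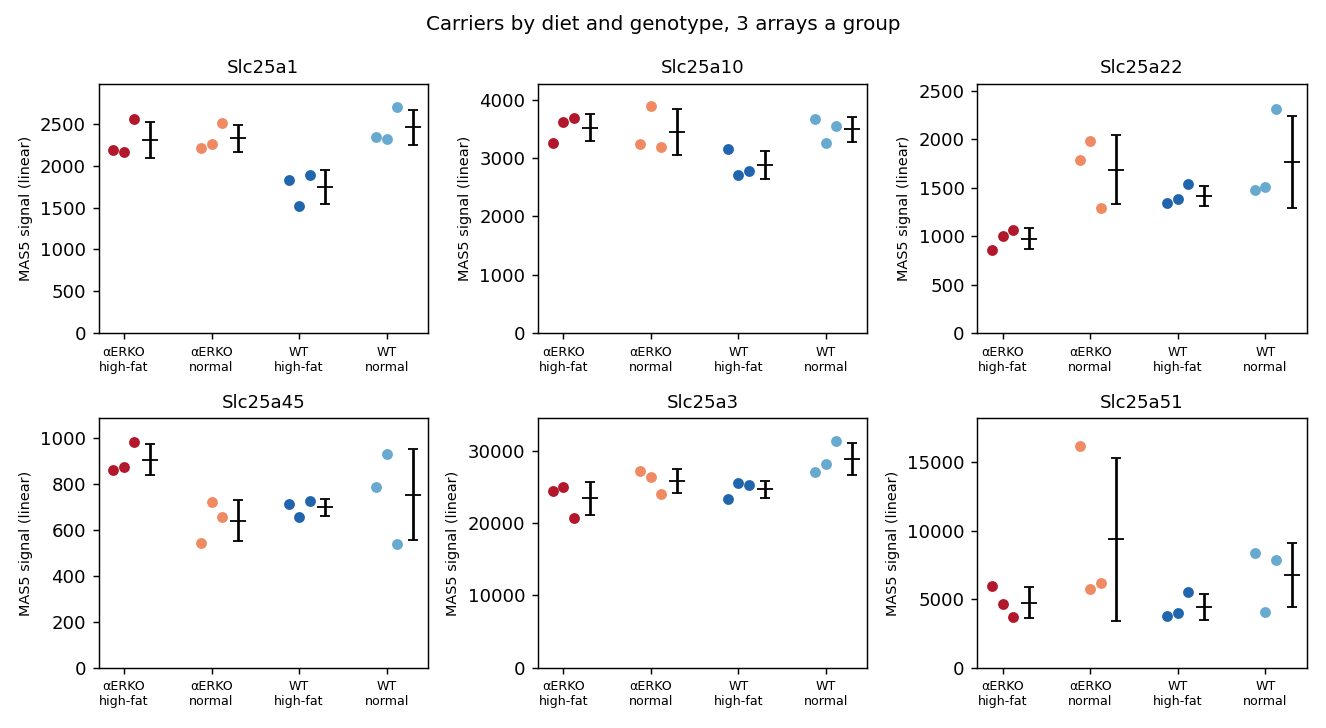
MAS5 signal (vertical axis, linear) of 6 carriers on each array by group, with 3 points a group and the mean ± SD in black. Slc25a22 lies lower on the high-fat diet in αERKO and Slc25a1 and Slc25a10 lie lower on it in WT, with 0 of the 6 carriers called, and Slc25a51 has a single high array in αERKO normal.

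Non-overlapping members among the 36 tested numbered, on the high-fat diet, 1 above and 3 below in αERKO, against 9.07% and 7.66% of all genes, and 0 above and 4 below in WT, against 7.03% and 7.31%. Those below were Slc25a22, Slc25a26 and Slc25a33 in αERKO and Slc25a1, Slc25a3, Slc25a5 and Slc25a10 in WT, with no member on both lists. Averaged over genotypes, a comparison added after the data had been seen, 0 of 36 members were called, against 0.946% of all genes. The lowest adjusted p was again that of Slc25a22 (-0.52 ± 0.13, SE, adjusted p = 0.0889). Slc25a33 averaged -0.32 ± 0.11 for the diet (SE, adjusted p = 0.204), so the carrier that was higher in αERKO had lower values on the high-fat diet that did not pass.

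Whether the diet difference itself differed between genotypes was tested by the interaction, the diet difference in αERKO minus that in WT. There were 0 calls among the 36 members and 0 among all genes (0%), with 2 members higher and 1 lower at an unadjusted p under 0.05, against 397 genes higher (3.24%) and 331 lower (2.7%). Slc25a1 had the smallest p of the family, with 0.48 ± 0.17 (SE, adjusted p = 0.786). Slc25a53 followed with -1.71 ± 0.73 and Slc25a45 with 0.57 ± 0.25 (SE), and both had an adjusted p of 0.817. The differences of Slc25a28 (-0.53 ± 0.26), Slc25a48 (-1.18 ± 0.60) and Slc25a10 (0.31 ± 0.16) did not pass either, and that of Slc25a10 was 0.02 with the mean of its probe sets. A second Slc25a48 probe set (mean signal 105.7) had the opposite sign, with 0.40 ± 0.45 (SE). The interaction is less precise than the other comparisons. In it 24 of 36 members (66.7%) had a 95% interval within 1 log2 unit of 0, against 60.1% of all genes.

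Genes that work with the carriers were read from a list of 36, of which 32 were tested. Mdh1, the cytosolic malate dehydrogenase of the malate-aspartate shuttle, was higher in αERKO on normal diet, with 41634 ± 1428 in αERKO, against 28931 ± 4829 in WT (SD, n = 3 each, log2 difference 0.54 ± 0.11, SE, adjusted p = 0.0254). It was 1 of 32 called there, against 1.22% of all genes. In the high-fat genotype comparison 0 of 32 were called, against 1.98%, and 0 in the diet comparisons and the interaction, against 0.481% in αERKO, 0.0734% in WT and 0%. Averaged over diets 3 of 32 were called, against 4.32% of all genes. Mdh1 (0.38, adjusted p = 0.0112) and Mtch2, a carrier relative of the outer membrane (0.31 ± 0.08, SE, adjusted p = 0.0354), were higher in αERKO. Gpd2, the inner-membrane enzyme of the glycerol phosphate shuttle, was lower (-0.66 ± 0.12, SE, adjusted p = 0.00439).

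The other shuttle enzymes and the import and biogenesis factors of the list were not called. Got2, the matrix aspartate aminotransferase, differed by 0.09 ± 0.06 averaged over diets, and Mpc1, the pyruvate carrier subunit, by -0.20 ± 0.07 (SE, adjusted p = 0.119). Of the 7 genes that import carriers into the inner membrane, 0 were called, with a median of 0.03, and of the 6 biogenesis regulators 0, with a median of -0.25, beside -0.05 for all genes.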

How the data were processed

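Liver RNA from 12 samples was measured on 1 array each. The authors deposited linear MAS5 intensities, with Affymetrix Expression Console and MAS5 named in the submitters' processing notes and no version stated in the sources used. As the values show, each array had been scaled to a trimmed mean of 500. Samples were grouped by genotype and diet in their labels. Names came from the platform annotation, in which 34958 of 45101 probe sets had 1 symbol, 932 several and 9211 no entry. Of 18194 genes, 12264 passed the filter on low signal, and log2(signal + 16) understates differences of dim genes. R 4.3.3 and limma 3.58.1 fitted 1 mean per group to all 12 arrays with trended moderation. P-values were two-sided and Benjamini-Hochberg adjusted over 12264 genes. The script was tested on simulated data. The median SE was 0.20 on the log2 scale, and precision is limited by how many arrays there were.

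The members and lists were chosen with earlier results of these data known. Members given in full were those called or with the 3 smallest p-values in each direction of a comparison. Alternatives covered the pseudocount, filter, centring, probe-set choice, trend, array weights, replicate block, marker arrays and each array left out.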

Additional observations from a re-analysis of the deposited data

How the results depend on the processing

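Under 26 alternatives, 12 of them leaving out 1 array each, the 42 named differences of single carriers gave 1070 values. Of these, 1028 kept their direction and side of the threshold, 33 lost the call, 7 gained it and 2 changed sign. The sign changes were in Slc25a17 on normal diet with the mean of its probe sets (-0.07) and Slc25a32 for diet in αERKO without αERKO normal 3 (-0.003, with 0.376 at the other end when 1 array was left out). The members called between αERKO and WT stayed at 0 on normal diet under every alternative, as did those for diet in WT and for the interaction. With array quality weights they were 2 on the high-fat diet (Slc25a1 and Slc25a33) and 1 for diet in αERKO (Slc25a22). Leaving out 1 array gave 0 to 1 for diet in αERKO, where WT normal 3 gave 1, and 0 to 1 for diet over both genotypes, where αERKO normal 3 gave 1. For genotype over both diets, 3 members were called, and 0 without the intensity trend, without the 4 acinar arrays, without the 3 muscle arrays, or with both scores as covariates. Keeping only genes above the median on all 12 arrays gave 4, and leaving out 1 array gave 0 to 4, with 4 without WT normal 1 (the added call in both was Slc25a39, lower) and 0 without WT high-fat 1. It gave 1 without WT normal 3, WT high-fat 2, αERKO normal 1, αERKO normal 2, αERKO high-fat 1 or αERKO high-fat 2 (Slc25a16 each), and 1 without WT high-fat 3 (Slc25a33).

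With the replicate number as a block the members called were 0 in the 5 comparisons of the design, 0 for diet over both genotypes and 2 for genotype over both diets, where Slc25a33 had an adjusted p of 0.0619. Same-numbered arrays did not deviate together (r from -0.146 to 0.212), so the numbers were not taken as pairs.

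Counts over all genes moved more: from 150 to between 32 and 152 for genotype on normal diet, from 243 to 60 to 944 on the high-fat diet, and from 530 to 142 to 844 over both diets. For diet they were 59 with 7 to 187 in αERKO, 9 with 0 to 24 in WT and 116 with 15 to 192 over both genotypes, and for the interaction 0 with 0 to 2. Median centring shifted the median of all genes by 0.137 for genotype on normal diet and 0.102 over both diets, and took the share of calls that were higher in αERKO to 67.9% on normal diet, against 48.0% uncentred, and to 72.9% over both diets, against 47.7%. Slc25a48 and Slc25a53 were not tested where only genes above the median on all 12 arrays were kept.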
